A study of Homo sapiens with 8 samples.

Results

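The G2/M and mitosis genes are 52 genes of the G2-to-M transition, the spindle, the kinetochore and cytokinesis. They were chosen by name and matched by symbol to the 58051 Ensembl gene IDs of the count files, and all 52 were found. Transcript 3′ ends were sequenced in 8 samples of MDA-MB-231 (MDA231), a human triple-negative breast cancer line, harvested untreated at 70% confluency in full medium. Parental cells were not modified (n = 2). SDHBKO cells carry a TALEN knockout of SDHB, the iron-sulfur subunit of mitochondrial complex II (n = 3). SDHBKOSDHAlow cells carry the same knockout and, in addition, a knockdown by shRNA of SDHA, the flavoprotein subunit (n = 3). SDHBKO cells had been selected with hygromycin and SDHBKOSDHAlow cells with puromycin as well, and no empty-vector control was among the samples, so that knockdown and shRNA plasmid cannot be told apart. The labels number biological replicates, and nothing says whether they were separate cultures, so that p-values measure the spread between these samples. The study asked how the subassembly of complex II that remains in SDHBKO cells, and its loss upon SDHA knockdown, alter these cells, the cell cycle included.

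Mitosis is driven by CDK1 bound to cyclin B, which CDC25 phosphatases activate and which, with Polo-like and Aurora kinases, builds the spindle and readies the chromosomes. The spindle checkpoint holds back the anaphase-promoting complex until kinetochores are attached. The complex then marks securin and cyclin B for destruction, separase cuts cohesin, and the cell divides. Messenger RNAs of these genes build up in G2 and fall after division in cycling cells, under the DREAM and MuvB complexes, B-MYB and FOXM1. These act through CHR elements near the start site, where CCAAT boxes are also common. In bulk RNA, fewer cells in G2 and M and less RNA of these genes per cell cannot be told apart.

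Levels are given as CPM, reads of a gene per 1000000 reads on the genes tested, scaled by TMM. The libraries sequence 1 end of each transcript, so that CPM was not divided by gene length. Between 773042 and 1427141 reads per sample lay on genes, and 3 reads corresponded to 2.24 to 4.10 CPM, which limits what can be seen in the members of low level. A gene was tested when its mean normalized count over all samples (BaseMean) was above 5, and called when its adjusted p (edgeR quasi-likelihood test, Benjamini-Hochberg over all 7550 genes tested) was below 0.1. SDHBKO and SDHBKOSDHAlow cells are called the derived lines, and a log2 fold change between them is that of SDHBKOSDHAlow against SDHBKO cells. SDHA stood at 74.0 and 91.6 CPM in parental cells, at 135 to 151 CPM in SDHBKO cells and at 8.45 to 17.8 CPM in SDHBKOSDHAlow cells, in the order the labels give. SDHB had 0 to 4 reads in every sample, and its reads lie away from the edited first exon, so that they check nothing. Of markers of the line, VIM, CD44, KRT18, MSN and CAV1 were read in all samples, and ESR1, PGR, PTPRC, CD3E and ALB had no read in any. GATA3, listed as low in a triple-negative line, was nevertheless read enough to be tested, and was called in no comparison. EPCAM, listed as low too, and PECAM1, of another cell type, did not pass the filter.

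Of the 52 members, 42 passed the filter. The 10 that did not were NEK2, BUB1, TTK, CENPE, NUF2, KNL1, KIF11, HMMR, KIF23 and ECT2, with 0 to 15 reads in any sample. Together these 10 genes gave 63 and 31 reads in parental samples, 9 to 31 in SDHBKO samples and 20 to 33 in SDHBKOSDHAlow samples. The untested ECT2, which activates RhoA at the cleavage furrow, had 15 and 7 reads in parental samples, 0, 4 and 2 in SDHBKO samples and 1, 4 and 5 in SDHBKOSDHAlow samples. HMMR, which binds spindles and hyaluronan, had 3 reads in the whole series. In fits whose filter let ECT2 in, its log2 fold change in SDHBKO cells was −2.46 ± 0.78 with only the 2 groups fitted and −2.47 ± 0.79 without SDHBKOSDHAlow replicate 1, and it was called lower in both (adjusted p = 0.0513 and 0.0991, edgeR). Both fits left out derived samples, so that the parental samples, where ECT2 had most reads, weighed more in the filter. ECT2 thus passed through the group where it is high, and these calls give no support for a fall. In the other 3 fits that tested ECT2 it was not called (adjusted p from 0.11 to 0.265, edgeR). The other 9 genes had 0 to 11 reads in any sample and were called in no fit.

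Only 4 members were called in any of the 3 comparisons, namely PTTG1, CKS1B, CENPF and CDC25B. In SDHBKO cells against parental cells PTTG1 and CKS1B rose and CENPF fell. CDC25B fell in SDHBKOSDHAlow cells against both other groups, and CENPF was lower in SDHBKOSDHAlow cells than in parental cells. The promoters of these 4 genes are shown because these are the members that were called, some higher and some lower, and because G2/M promoters are known for short shared motifs. Each window is from RefSeq (GRCh38.p14), all are on the plus strand, and each runs 5′ to 3′ from 250 bases before an annotated start to 50 bases after it. Capitals mark the CHR element (TTTGAA or TTCGAA) and the CCAAT box, each searched on both strands, where a box on the other strand reads ATTGG.
PTTG1: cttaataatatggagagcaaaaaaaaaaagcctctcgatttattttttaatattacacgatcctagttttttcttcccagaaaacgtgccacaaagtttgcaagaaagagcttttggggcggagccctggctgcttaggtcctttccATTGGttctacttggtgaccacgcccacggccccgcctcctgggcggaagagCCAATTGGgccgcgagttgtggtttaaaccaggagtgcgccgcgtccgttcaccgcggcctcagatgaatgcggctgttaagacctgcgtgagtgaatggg
CKS1B: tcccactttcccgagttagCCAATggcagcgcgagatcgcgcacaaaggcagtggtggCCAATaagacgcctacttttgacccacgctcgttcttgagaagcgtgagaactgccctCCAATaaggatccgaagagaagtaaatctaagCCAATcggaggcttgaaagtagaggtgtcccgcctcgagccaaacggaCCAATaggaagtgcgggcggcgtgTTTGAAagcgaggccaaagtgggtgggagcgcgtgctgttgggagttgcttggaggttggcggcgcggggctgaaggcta
CENPF: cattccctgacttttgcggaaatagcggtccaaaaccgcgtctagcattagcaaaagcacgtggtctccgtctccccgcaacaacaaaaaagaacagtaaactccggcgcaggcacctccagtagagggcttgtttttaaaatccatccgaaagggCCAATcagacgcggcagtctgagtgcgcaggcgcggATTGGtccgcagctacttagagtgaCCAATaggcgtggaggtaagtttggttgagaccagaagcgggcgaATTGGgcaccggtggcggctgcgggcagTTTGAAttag
CDC25B: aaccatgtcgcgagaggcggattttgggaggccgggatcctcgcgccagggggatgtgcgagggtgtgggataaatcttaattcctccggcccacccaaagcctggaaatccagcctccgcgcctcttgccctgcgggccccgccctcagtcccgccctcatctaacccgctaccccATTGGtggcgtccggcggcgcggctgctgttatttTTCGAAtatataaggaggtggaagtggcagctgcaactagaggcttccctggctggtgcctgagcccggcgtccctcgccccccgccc
The windows lie at chr5:160421605-160421904 for PTTG1, chr1:154974431-154974730 for CKS1B, chr1:214602945-214603244 for CENPF and chr20:3796060-3796359 for CDC25B. PTTG1 has 2 annotated windows and CDC25B has 4, and the one with both kinds of match, or else the first, is shown. None of the other CDC25B windows held a CHR element, and that at chr20:3786701-3787000 held neither motif.

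The CKS1B window, of a gene that rose, held 1 CHR element and 5 CCAAT boxes. The CENPF window, of a gene that fell, held 1 CHR element and 4 CCAAT boxes. The CDC25B window shown had 1 of each, and PTTG1 had 3 CCAAT boxes, 2 of which overlap, and neither form of the CHR element that was searched. RefSeq windows were matched for 43 of the 52 members. A CHR element lay in 36 of 53 member windows (67.9%), against 16.4% of all 35116 windows, and a CCAAT box lay in 42 of 53 (79.2%), against 34.6%. Both together lay in 58.5% of member windows and in 6.38% of all windows. These matches are letters in a window and were not tied to any binding measured in these cells.

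In SDHBKO cells against parental cells, 3 of the 42 members tested were called, which is 7.14%, where 5.54% of all genes tested were called. They were 2 members higher (3.14% of all genes tested were called higher) and 1 lower (2.4% of all). In SDHBKOSDHAlow cells against SDHBKO cells 1 member was called, lower, which is 2.38% of those tested. The background there was 1.51% of genes, 0.318% higher and 1.19% lower. In SDHBKOSDHAlow cells against parental cells 2 members were called, both lower, which is 4.76%, beside 0.914% of all genes, 0.225% higher and 0.689% lower. With 42 genes these shares rest on 1 to 3 calls each, and most members did not pass the test in any comparison. Without SDHBKOSDHAlow replicate 2, 8 members were called in SDHBKO against parental cells and 6 in SDHBKOSDHAlow against SDHBKO cells, where 11.4% and 5.03% of the genes tested were called. The former were CDCA3, CDK1, CDKN3, ESPL1 and MKI67 beside PTTG1, CKS1B and CENPF.

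**Figure D1:**
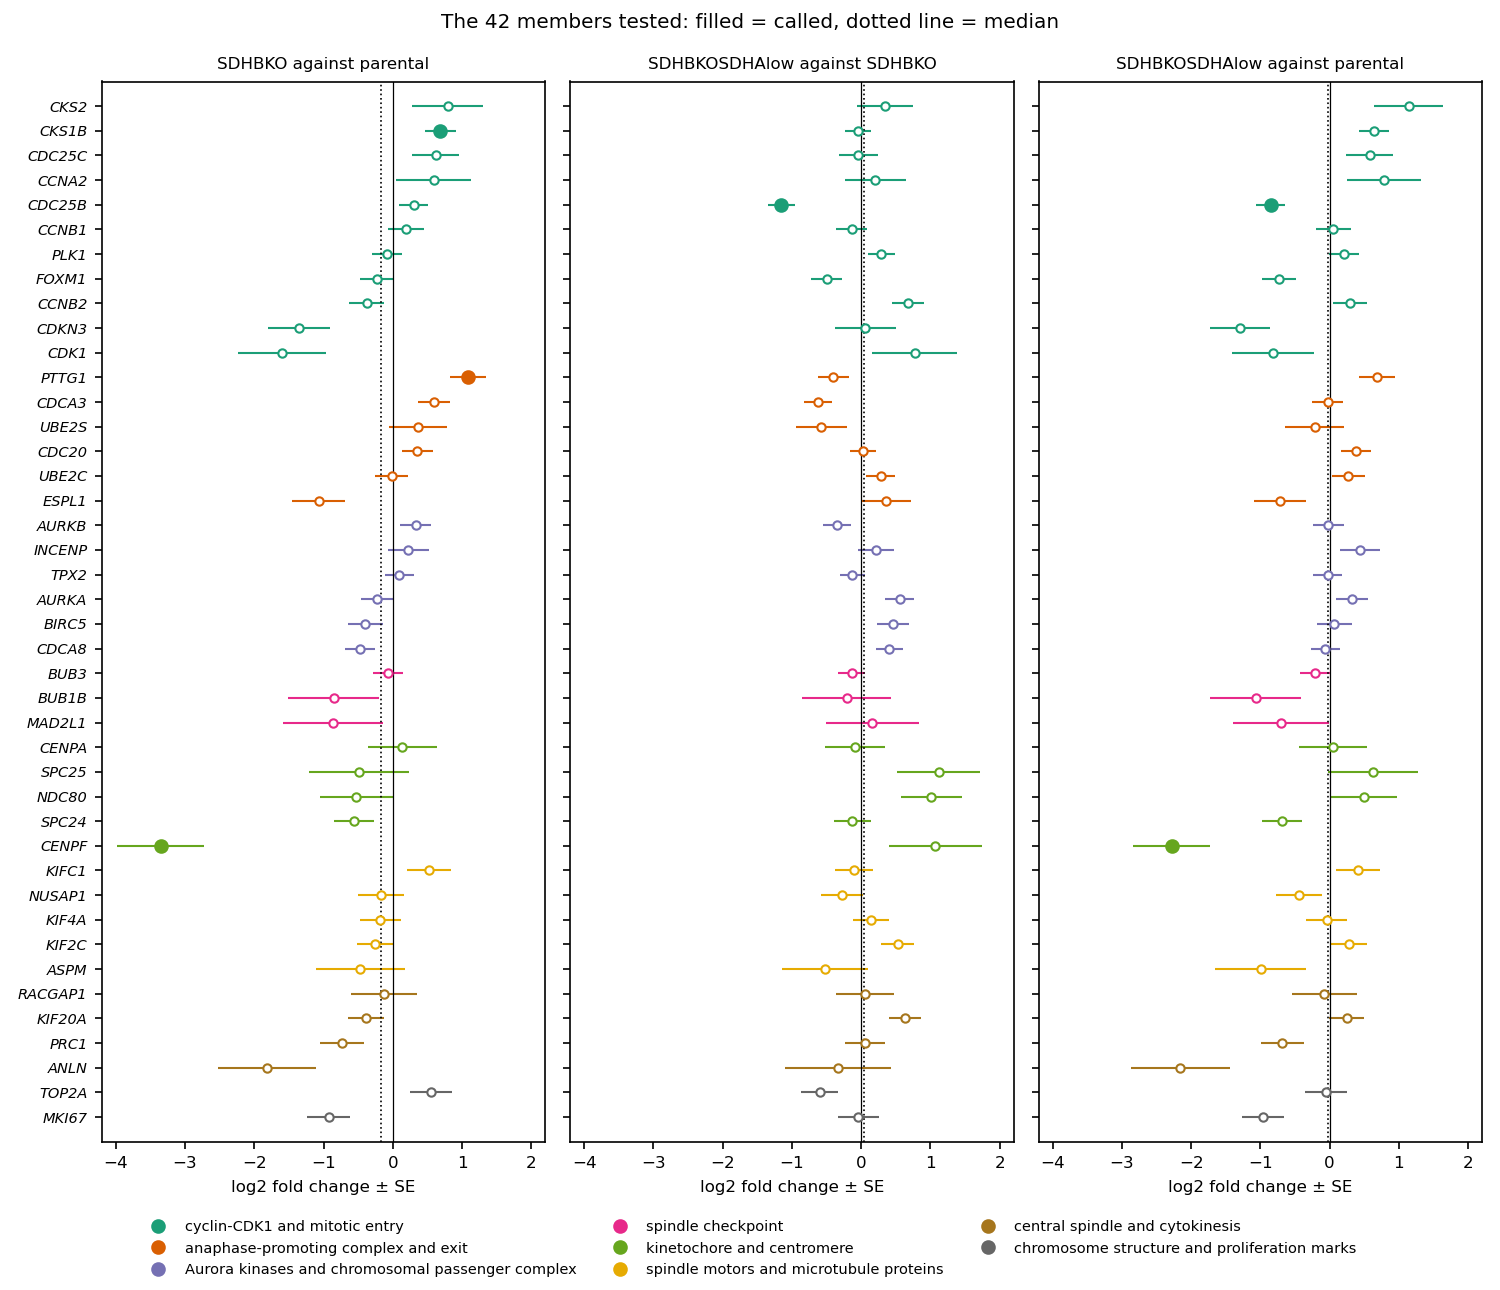
Log2 fold change (x axis, with standard error) of the 42 members tested (y axis), coloured by role, in the 3 comparisons, which share samples. Filled points are the members called at an adjusted p below 0.1, namely PTTG1, CKS1B and CENPF on the left, CDC25B in the middle, CENPF and CDC25B on the right, and the dotted lines are the medians of −0.17, 0.04 and −0.03.

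PTTG1 (ENSG00000164611, chromosome 5, 160421855 to 160428739 on GRCh38) encodes securin, which holds separase inactive until anaphase. Its level was 416 and 419 CPM in the parental samples and 1052, 699 and 915 CPM in the SDHBKO samples. In SDHBKOSDHAlow samples it was 597, 933 and 481 CPM. Every sample of both derived lines lay above both parental samples, while the derived lines overlapped each other. The log2 fold change of PTTG1 in SDHBKO cells was 1.09 ± 0.26 (SE, n = 3 against 2, edgeR adjusted p = 0.0299), a 2.13-fold higher level. Against parental cells the log2 fold change in SDHBKOSDHAlow cells was 0.68 ± 0.26 (adjusted p = 0.257, edgeR), and between the derived lines it was −0.40 ± 0.22 (adjusted p = 0.48, edgeR), neither of which was called. The call in SDHBKO cells was lost without parental replicate 1 (adjusted p = 0.42, edgeR), parental replicate 2 (0.228) or SDHBKO replicate 1 (0.146), with log2 fold changes of 1.08, 1.09 and 0.96.

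CKS1B (ENSG00000173207, chromosome 1, 154974653 to 154979251) encodes a small protein that binds cyclin-dependent kinases and serves in the destruction of a CDK inhibitor. It stood at 318 and 361 CPM in parental samples and at 564, 525 and 553 CPM in SDHBKO samples. In SDHBKOSDHAlow samples CKS1B was at 486, 669 and 430 CPM, so that all 6 derived samples were above both parental samples. The log2 fold change was 0.69 ± 0.22 in SDHBKO cells (adjusted p = 0.0977, edgeR), close to the threshold, and 0.64 ± 0.22 in SDHBKOSDHAlow cells (adjusted p = 0.218, edgeR). Between the derived lines it was −0.05 ± 0.19 (adjusted p = 0.948, edgeR). The CKS1B call in SDHBKO cells was also lost with DESeq2 size factors (adjusted p = 0.101, edgeR), with a GC trend as an offset (0.127) and in 6 of the 8 fits that left out 1 sample, all but those without SDHBKOSDHAlow replicate 2 or 3.

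PTTG1 and CKS1B have near-identical copies elsewhere in the genome, 3 annotated for PTTG1 and 7 for CKS1B. No copy had a read in any sample, and reads that map to several places were not counted on genes. The share of such reads was 14.5% to 16.1% in SDHBKO samples, against 10.2% and 10.9% in parental samples and 9.72% to 12.3% in SDHBKOSDHAlow samples. Its part in the result for PTTG1 and CKS1B was not tested.

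CENPF (ENSG00000117724, chromosome 1, 214603185 to 214664574) encodes a large kinetochore protein whose level rises in G2. Its counts were 66 and 16 reads in parental samples, 3, 8 and 1 in SDHBKO samples and 7, 9 and 14 in SDHBKOSDHAlow samples. As CPM these were 76.4 and 21.2 in parental samples, 4.10, 8.89 and 1.08 in SDHBKO samples and 8.45, 6.72 and 15.6 in SDHBKOSDHAlow samples. Both parental samples were above all 6 derived samples, but they differed from each other 3.59-fold. The log2 fold change of CENPF was −3.35 ± 0.62 in SDHBKO cells (adjusted p = 0.0082, edgeR), a 10.2-fold lower level that rests on 12 reads in 3 samples. In SDHBKOSDHAlow cells against parental cells it was −2.28 ± 0.55 (adjusted p = 0.0837, edgeR), and between the derived lines 1.07 ± 0.68 (adjusted p = 0.552, edgeR). Both CENPF calls were lost without parental replicate 1 (adjusted p = 0.464 and 0.924, edgeR), where the log2 fold changes were −2.15 and −1.07. The call in SDHBKOSDHAlow cells was also lost without SDHBKO replicate 1 or SDHBKOSDHAlow replicate 1 (0.116 and 0.259). DESeq2 gave CENPF a log2 fold change of −3.38 and an unadjusted p of 1.36e-05 in SDHBKO cells but no adjusted p, since its mean count lay below the filter of that tool.

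CDC25B (ENSG00000101224, chromosome 20, 3786772 to 3806121) encodes a phosphatase that activates CDK1 at the start of mitosis. It was read at 381 and 335 CPM in parental samples, at 469, 411 and 441 CPM in SDHBKO samples and at 163, 214 and 216 CPM in SDHBKOSDHAlow samples. The 3 groups did not overlap, with SDHBKO cells highest and SDHBKOSDHAlow cells lowest. Its log2 fold change in SDHBKOSDHAlow cells was −1.15 ± 0.19 against SDHBKO cells (adjusted p = 0.00382, edgeR), a 2.22-fold lower level. Against parental cells it was −0.85 ± 0.21 (adjusted p = 0.0849, edgeR). The difference of SDHBKO from parental cells, 0.30 ± 0.21, was not called (adjusted p = 0.493, edgeR). CDC25B was called against SDHBKO cells in each fit that left out 1 sample, at adjusted p from 0.000197 to 0.038 (edgeR), whereas its call against parental cells was lost in 6 of those 8 fits, those without either parental sample, any SDHBKO sample or SDHBKOSDHAlow replicate 1.

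**Figure D2:**
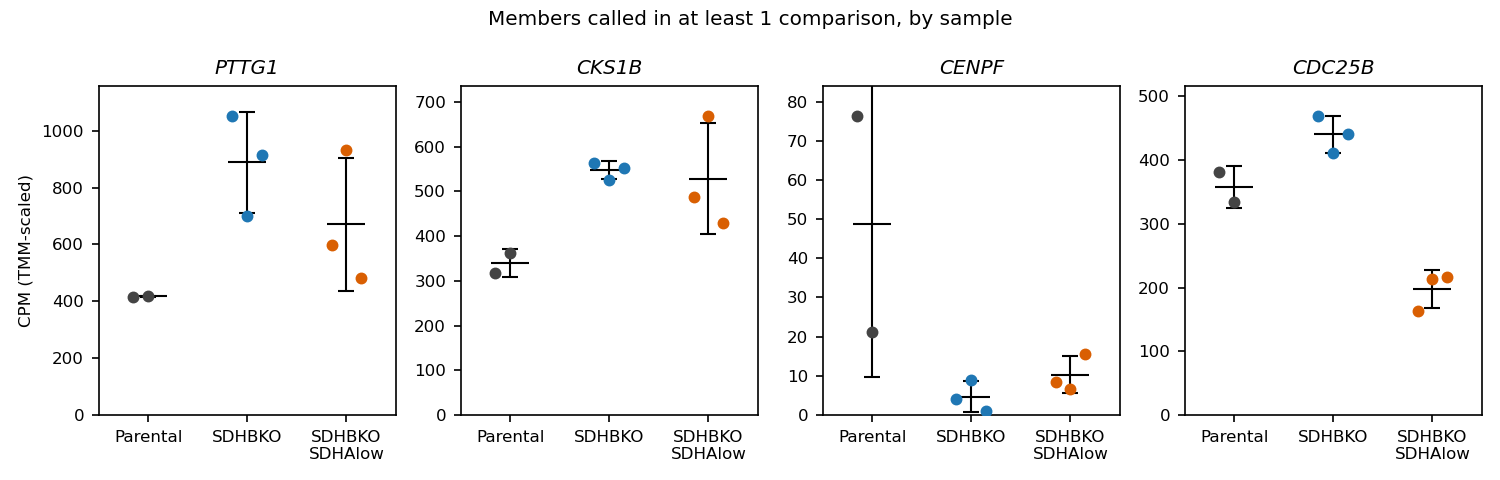
CPM (y axis, from 0) of PTTG1, CKS1B, CENPF and CDC25B in the samples of the 3 groups (x axis), with the group mean and standard deviation. PTTG1 and CKS1B lay above the parental samples in all 6 derived samples, CENPF lay below them with parental samples at 76.4 and 21.2 CPM, and CDC25B was lowest in the 3 SDHBKOSDHAlow samples.

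The 11 genes of cyclin-CDK1 and mitotic entry were all tested. CKS1B was the only one called in SDHBKO cells, and CDC25B was the only one called in the other comparisons. CDK1, the kinase that drives entry, stood at 37.0 and 9.29 CPM in parental samples, 1.37, 12.2 and 8.63 CPM in SDHBKO samples and 18.1, 8.21 and 14.5 CPM in SDHBKOSDHAlow samples. The groups overlapped, because the parental samples differed 3.98-fold. CDK1 had the largest log2 fold change of this role in SDHBKO cells, −1.60 ± 0.64, and was not called (adjusted p = 0.182, edgeR). CDKN3, a phosphatase of cyclin-dependent kinases, was just outside the threshold in SDHBKO cells with −1.35 ± 0.45 (adjusted p = 0.104, edgeR), from 47.4 and 27.9 CPM in parental samples to 9.58, 22.2 and 11.9 CPM. It passed at BaseMean above 10 or with a GC trend as an offset, among other settings.

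PLK1, a kinase of mitotic entry and spindle assembly, was the entry gene with the highest CPM. It was at 489 and 462 CPM in parental samples, 441, 414 and 495 CPM in SDHBKO samples and 471, 703 and 471 CPM in SDHBKOSDHAlow samples. The groups overlapped, with log2 fold changes of −0.08 ± 0.22 in SDHBKO cells and 0.29 ± 0.20 between the derived lines (adjusted p = 0.899 and 0.585, edgeR). The mitotic cyclins CCNB1 and CCNB2 were not called. CCNB1 ranged from 115 to 196 CPM over the 8 samples. CCNB2 was at 163 and 141 CPM in parental samples, 97.1, 157 and 96.0 CPM in SDHBKO samples and 183, 169 and 208 CPM in SDHBKOSDHAlow samples. All SDHBKOSDHAlow samples were above all other samples for CCNB2, with a log2 fold change of 0.68 ± 0.22 against SDHBKO cells (adjusted p = 0.2, edgeR). FOXM1, the transcription factor of G2/M genes, was at 286 and 258 CPM, at 222 to 250 CPM and at 109 to 217 CPM in the 3 groups in that order. The FOXM1 groups did not overlap, yet neither −0.23 ± 0.25 in SDHBKO cells nor −0.73 ± 0.25 in SDHBKOSDHAlow cells against parental cells was called (adjusted p = 0.684 and 0.207, edgeR). CCNA2, CDC25C and CKS2 had log2 fold changes of 0.59 to 0.79 in SDHBKO cells and were not called (edgeR).

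The 6 genes of the anaphase-promoting complex and mitotic exit were all tested, and PTTG1 was the only one called, in SDHBKO cells. Separase, encoded by ESPL1 and held in check by securin, gave values on the other side of 0 from securin. ESPL1 was at 40.5 and 73.0 CPM in parental samples, 31.5, 27.8 and 21.6 CPM in SDHBKO samples and 18.1, 37.3 and 46.8 CPM in SDHBKOSDHAlow samples. The SDHBKO samples lay below both parental samples, but the log2 fold change of −1.07 ± 0.39 was not called (adjusted p = 0.137, edgeR). UBE2C, the E2 enzyme of the complex, had the highest CPM of this role, at 693 and 706 in parental samples, 818, 600 and 660 in SDHBKO samples and 716, 1157 and 651 in SDHBKOSDHAlow samples. Its log2 fold change in SDHBKO cells was −0.01 ± 0.24 (adjusted p = 0.983, edgeR), and the 3 groups overlapped, with SDHBKOSDHAlow replicate 2 the highest sample. CDCA3, a trigger of mitotic entry, was at 147 and 165 CPM, at 279, 230 and 200 CPM and at 145, 152 and 160 CPM in the 3 groups. SDHBKO samples were above all others for CDCA3, with log2 fold changes of 0.60 ± 0.23 against parental cells and −0.63 ± 0.20 in SDHBKOSDHAlow against SDHBKO cells, not called (adjusted p = 0.16 and 0.183, edgeR). CDC20 and UBE2S had differences in SDHBKO cells of 0.36 ± 0.22 and 0.36 ± 0.42 on the log2 scale.

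Among Aurora kinases and the chromosomal passenger complex 6 of 7 genes were tested. With all samples in the fit, no member was called by edgeR or DESeq2 in any comparison. AURKB, its kinase, was the member with the highest CPM, at 865 and 1071 in parental samples, 1190, 1086 and 1381 in SDHBKO samples and 800, 1236 and 827 in SDHBKOSDHAlow samples. Its SDHBKO samples lay just above the parental samples, with a log2 fold change of 0.33 ± 0.22 (adjusted p = 0.465, edgeR). CDCA8, the subunit borealin, had the largest difference of this role, −0.47 ± 0.21 in SDHBKO cells (adjusted p = 0.241, edgeR). CDCA8 was at 246 and 272 CPM in parental samples, 194, 186 and 180 CPM in SDHBKO samples and 224, 244 and 274 CPM in SDHBKOSDHAlow samples, so that SDHBKO samples were below all others. AURKA, the spindle pole kinase, was at 231 to 266 CPM in SDHBKOSDHAlow samples and at 123 to 199 CPM in all other samples, with a log2 fold change of 0.56 ± 0.21 against SDHBKO cells (adjusted p = 0.262, edgeR). TPX2, which activates AURKA, stayed between 352 and 465 CPM in all 8 samples. The number of members of this role with an unadjusted p below 0.05 was 1 in SDHBKO cells (16.7%, all genes tested 17.5%). Between the derived lines it was 2 (33.3%, all genes tested 12.1%).

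The spindle checkpoint had 3 of 5 genes tested. None was called by edgeR, and none had an unadjusted p below 0.05. DESeq2 called none either, but gave an adjusted p to only 1 of the 3 in each comparison. BUB3 was at 184 and 155 CPM in parental samples, 175, 153 and 158 CPM in SDHBKO samples and 146, 145 and 150 CPM in SDHBKOSDHAlow samples. Its log2 fold changes were −0.07 ± 0.22 in SDHBKO cells and −0.14 ± 0.20 between the derived lines (adjusted p = 0.916 and 0.822, edgeR). MAD2L1 and BUB1B, also of the checkpoint complex, were read 1 to 12 times per sample. MAD2L1 had the largest difference of this role, −0.87 ± 0.72 in SDHBKO cells (adjusted p = 0.574, edgeR), on 7 and 7 reads in parental samples, 4, 1 and 7 in SDHBKO samples and 4, 6 and 6 in SDHBKOSDHAlow samples. Its standard error was close in size to the difference itself, so a difference was not detectable at this depth.

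Of the 8 genes of kinetochore and centromere 5 were tested, and CENPF was the only one called. SPC24 of the Ndc80 complex, which grips microtubules, had the highest CPM of this role. SPC24 was at 101 and 108 CPM in parental samples, 72.5, 85.6 and 54.0 CPM in SDHBKO samples and 54.3, 50.7 and 90.3 CPM in SDHBKOSDHAlow samples. Parental samples were above all others, with log2 fold changes of −0.56 ± 0.29 in SDHBKO and −0.68 ± 0.29 in SDHBKOSDHAlow cells, not called (adjusted p = 0.323 and 0.323, edgeR). NDC80 and SPC25 of the same complex were read 3 to 25 times per sample, and all their SDHBKOSDHAlow values lay above all SDHBKO values, with log2 fold changes of 1.01 ± 0.44 and 1.12 ± 0.60 (adjusted p = 0.36 and 0.472, edgeR). CENPA, the histone of centromeres, was at 11.1 to 27.8 CPM and the groups overlapped.

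The spindle motors and microtubule proteins had 5 of 7 genes tested. With all samples in the fit none was called by edgeR in any comparison, nor by DESeq2, which gave 4 of the 5 an adjusted p. At an unadjusted p below 0.05 there was 1, KIF2C between the derived lines (20%, all genes tested 12.1%). KIF2C, a kinesin that takes microtubules apart, was at 128 and 127 CPM in parental samples, 119, 112 and 91.7 CPM in SDHBKO samples and 194, 103 and 172 CPM in SDHBKOSDHAlow samples. The derived lines overlapped through SDHBKOSDHAlow replicate 2, and the log2 fold change was 0.53 ± 0.24 (adjusted p = 0.38, edgeR). KIFC1, a minus-end kinesin, had the largest difference in SDHBKO cells, 0.52 ± 0.32 (adjusted p = 0.421, edgeR). Its samples overlapped, at 65.9 and 114 CPM in parental, 168, 125 and 93.9 CPM in SDHBKO and 161, 81.3 and 118 CPM in SDHBKOSDHAlow cells. KIF4A, NUSAP1 and ASPM gave −0.47 to −0.17 on the log2 scale in SDHBKO cells.

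Of central spindle and cytokinesis genes 4 of 6 were tested. With all samples in the fit none was called by edgeR, nor by DESeq2, which gave 2 or 3 of the 4 an adjusted p. In SDHBKO cells 2 had an unadjusted p below 0.05 (50%, all genes tested 17.5%). ANLN, the anillin of the contractile ring, had 13 and 12 reads in parental samples, 2, 8 and 1 in SDHBKO samples and 4, 2 and 4 in SDHBKOSDHAlow samples. Both parental samples were above all 6 derived samples. The log2 fold change of ANLN was −1.82 ± 0.71 in SDHBKO cells and −2.15 ± 0.72 in SDHBKOSDHAlow cells against parental cells, not called (adjusted p = 0.171 and 0.201, edgeR). Without SDHBKO replicate 2, ANLN was called lower in SDHBKO cells (edgeR). KIF20A, a cytokinesis kinesin and the member of this role with the highest CPM, was at 85.6 and 70.4 CPM in parental samples, 56.1, 67.8 and 55.0 CPM in SDHBKO samples and 96.5, 85.1 and 96.9 CPM in SDHBKOSDHAlow samples. SDHBKO samples were below all others for KIF20A, with 0.63 ± 0.23 between the derived lines (adjusted p = 0.252, edgeR). PRC1, which bundles the central spindle, was at 134 CPM in parental replicate 1 and at 44.8 to 79.1 CPM in the other 7 samples.

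Both proliferation marks were tested and neither was called. MKI67 (Ki-67, the coat of mitotic chromosomes) was at 116 and 67.7 CPM in parental samples, 32.8, 50.0 and 61.5 CPM in SDHBKO samples and 38.6, 53.0 and 49.0 CPM in SDHBKOSDHAlow samples. Both parental samples were above all 6 derived samples, with log2 fold changes of −0.92 ± 0.31 and −0.96 ± 0.31 (adjusted p = 0.112 and 0.178, edgeR). MKI67 was called in SDHBKO cells with a GC trend as an offset, when only the 2 groups entered the fit, or without SDHBKOSDHAlow replicate 2. TOP2A, the topoisomerase that untangles chromosomes, gave the other sign in SDHBKO cells, 0.55 ± 0.30 (adjusted p = 0.361, edgeR). TOP2A was at 359 and 279 CPM in parental samples, 486, 564 and 350 CPM in SDHBKO samples and 472, 175 and 280 CPM in SDHBKOSDHAlow samples, and the groups overlapped.

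**Figure D3:**
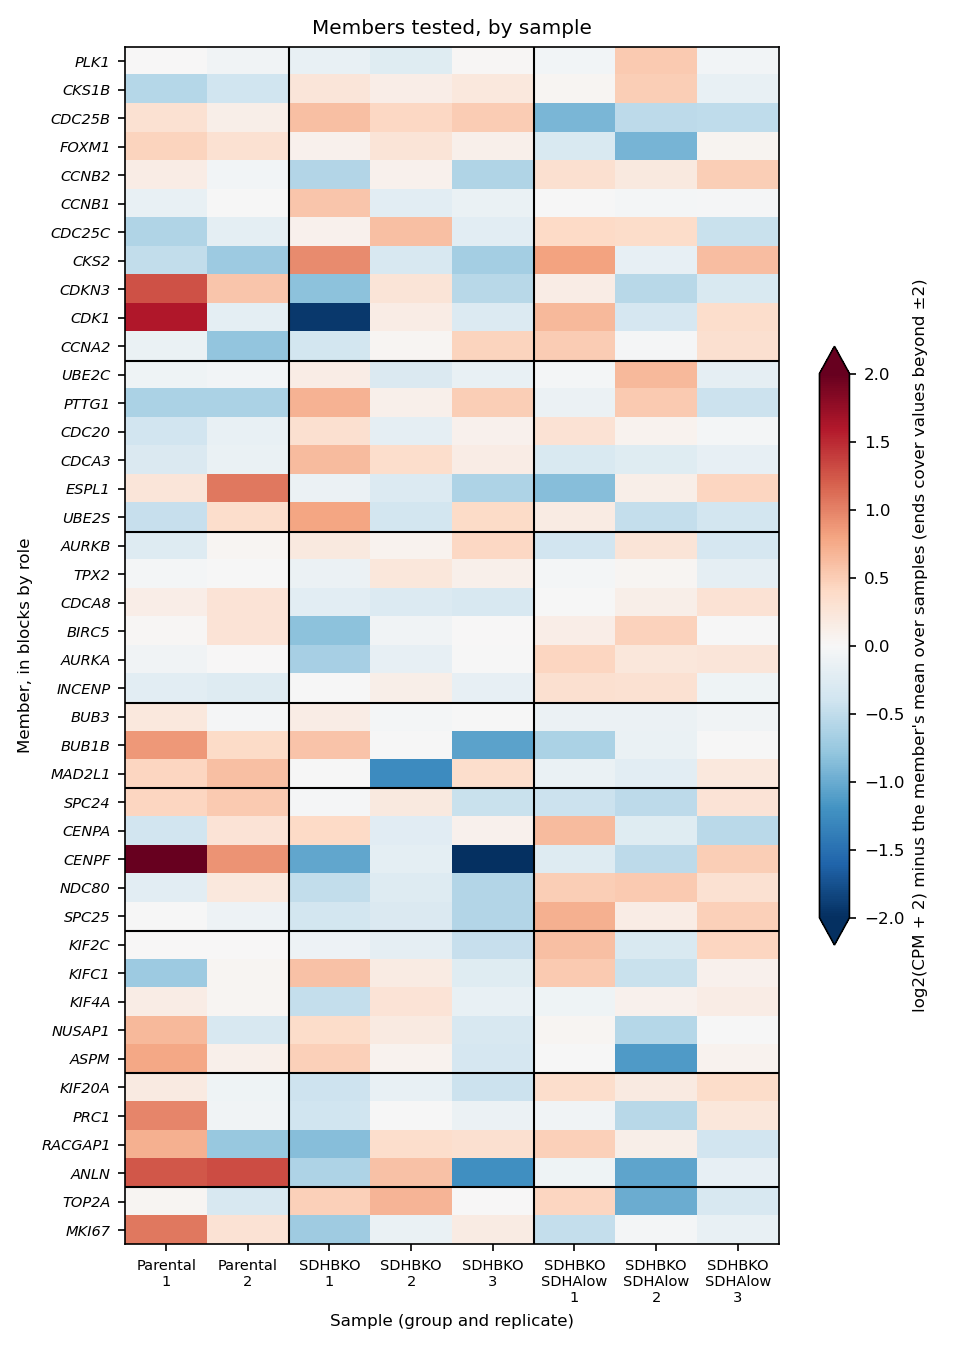
The 42 members tested (rows, in blocks by role, each block ordered by mean CPM) in the 8 samples (columns), coloured by log2(CPM + 2) minus the mean of the member over samples. Most members lie within 1 unit of their mean, and the strongest colours are those of genes of low count such as CENPF, CDK1 and ANLN.

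Across the 42 members the median log2 fold change in SDHBKO cells against parental cells was −0.17, beside −0.00072 over all genes tested, with 16 members above 0 and 26 below. In SDHBKOSDHAlow against SDHBKO cells it was 0.04 (0.01 over all genes), with 22 above 0 and 20 below. In SDHBKOSDHAlow against parental cells it was −0.03 (0.02 over all genes), with 19 above and 23 below. The summed level gave another sign than the median in SDHBKO cells. The 52 members together stood at 7041 and 7008 CPM in parental samples, at 8230, 7578 and 7817 CPM in SDHBKO samples and at 7200, 8222 and 6750 CPM in SDHBKOSDHAlow samples. Without PTTG1 the sums were 6606 ± 25.6 CPM (SD, n = 2), 6986 ± 166 CPM (n = 3) and 6720 ± 521 CPM (n = 3). Without CKS1B as well they were 6267 ± 56.0, 6439 ± 151 and 6192 ± 397 CPM. The sum is carried by the genes of high CPM, while the median counts each gene alike.

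Against parental cells, the members of lower level gave the lower median. In SDHBKO cells against parental cells the median log2 fold change was −0.49 among the 21 tested members with the lower mean CPM over all samples (5.94 to 70.6 CPM) and −0.01 among the other 21 (76.7 to 1057 CPM). In SDHBKOSDHAlow cells against parental cells the medians were −0.44 and 0.06, whereas between the derived lines the order was turned, at 0.06 and −0.11. A gene near the filter can pass it through parental reads, which lowers a median against parental cells. ANLN did so, with a BaseMean of 5.95 and means of 15.5, 4.24 and 3.59 CPM in the 3 groups. The medians of all genes of like level were not computed, so the difference cannot be credited to the members. Parental replicate 1 was high for several of the members of lower level. It was more than 1.5 times above parental replicate 2 in 9 of 42 members (21.4%, all genes tested 16.7%), among them CENPF, CDK1, RACGAP1, PRC1, MKI67 and NUSAP1, and more than 1.5 times below it in 4 (9.52%, all genes tested 12.5%). Without parental replicate 1 the median in SDHBKO cells was −0.04 and no gene at all was called by edgeR of 7479 tested (659 at an unadjusted p below 0.05, among them 3 members, and 27 genes but no member called by DESeq2).

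**Figure D4:**
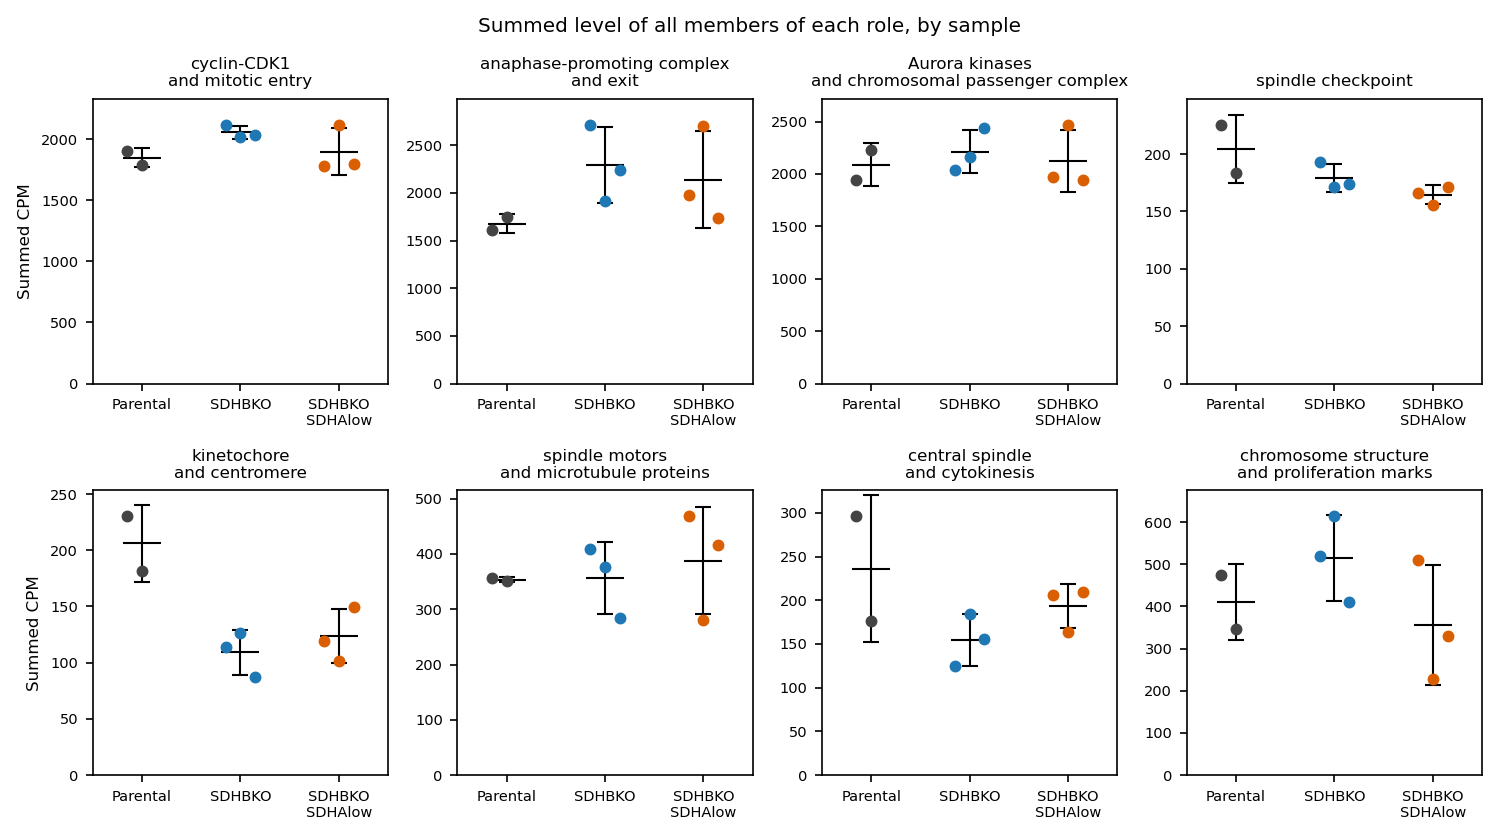
Summed CPM (y axis, from 0) of all members of each of the 8 roles in the samples of the 3 groups (x axis), with the group mean and standard deviation. The kinetochore and centromere sum was 182 and 230 CPM in parental samples and 87.4 to 149 CPM in the 6 derived samples, while the Aurora kinase and spindle motor sums overlapped among all groups.

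Role sums differed in direction. The kinetochore and centromere genes summed to 230 and 182 CPM in parental samples, 114, 127 and 87.4 CPM in SDHBKO samples and 119, 101 and 149 CPM in SDHBKOSDHAlow samples. All derived samples were below both parental samples, and CENPF made up 76.4 of the 230 CPM in parental replicate 1. The genes of the anaphase-promoting complex and exit summed to 1612 and 1746 CPM in parental samples, 2715, 1918 and 2241 CPM in SDHBKO samples and 1979, 2705 and 1735 CPM in SDHBKOSDHAlow samples. The SDHBKO samples were above the parental samples. PTTG1 alone made up 416 and 419 CPM of these sums in parental samples and 1052, 699 and 915 CPM in SDHBKO samples. No other gene of this role was called. Mitotic entry genes summed to 1848 ± 79.3 CPM (SD, n = 2), 2056 ± 52.9 CPM (n = 3) and 1898 ± 190 CPM (n = 3), and Aurora and passenger genes to 2087 ± 204, 2214 ± 201 and 2128 ± 297 CPM.

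At an unadjusted p below 0.05, 11 of the 42 members (26.2%) stood out in SDHBKO cells against parental cells, where 17.5% of all genes tested did. Beside the 3 called these were CDCA3, CDCA8, ANLN, CDK1, MKI67, ESPL1, CDKN3 and PRC1. Between the derived lines there were 10 (23.8%, all genes 12.1%), namely CDC25B, FOXM1, CDCA3, TOP2A, CDCA8, KIF2C, KIF20A, CCNB2, NDC80 and AURKA. Against parental cells, SDHBKOSDHAlow cells had 11 (26.2%, all genes 12.3%). The groups did not overlap in CPM for 20 members (47.6%) in SDHBKO against parental cells, where 37.9% of all genes tested did not. For SDHBKOSDHAlow against SDHBKO cells the count was 10 (23.8%, all genes 17.4%), and against parental cells 21 (all genes 30.7%). The comparisons share samples, so the counts are not independent of each other.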

How the data were processed

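Total RNA of 8 samples of the MDA-MB-231 line was made into Lexogen QuantSeq 3′ mRNA libraries. The authors trimmed reads with Trimmomatic, took out rRNA and mitochondrial reads with Sortmerna, aligned the rest to GRCh38 with STAR 2.5.2b and counted them per gene. The strand setting of the counting was not given in the sources used here. Tests used the deposited raw counts. The deposited normalized values, a signal obtained by dividing counts by 1 factor per sample, served only to check numbering. In them SDHBKO replicates 1 and 3 are swapped against the raw counts, whose own numbers were kept. Rows that name no gene (unmapped, ambiguous, multimapping or outside genes) held 18.8% to 28.6% of the reads in a file and were left out.

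Groups came from the labelled modification. Symbols, positions and 3′ end GC content came from GENCODE release 44 (GRCh38). In R 4.3.3, genes with BaseMean above 5 (7550 of 58051) were normalized by TMM. The quasi-likelihood test of edgeR 4.0.16 was fitted once to the 3 groups together, so that the parental pair shared an estimate of spread with the rest. P-values were adjusted by Benjamini-Hochberg within each comparison and called below 0.1. A standard error is the log2 fold change divided by the square root of F. Libraries held 773042 to 1427141 reads on genes, and replicates of a group differed by more than sampling noise (chi-squared per degree of freedom 2.09 to 9.58).

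The 52 members, their 8 roles and the other lists were chosen with earlier results of these data known. Values per sample are given for each member called, and in each role for the member of highest mean CPM and the one of largest difference in SDHBKO cells. Values of other members were added where their groups did not overlap or their call depended on the setting, which was seen in the data. Alternatives were DESeq2 1.42.0 on all genes, its size factors in edgeR, library totals alone, filterByExpr, a minimum of 1 read, BaseMean above 10, an adjusted p below 0.05, fits of 2 groups only, a block for the replicate number, omission of each sample, and a lowess trend against GC (fitted on genes with a mean count above 20) as an offset. The fits were tested on simulated data.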

Additional observations from a re-analysis of the deposited data

How the results depend on the processing

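The median of the 42 members and the number called were recomputed under each alternative, and a median was held to have moved when it shifted by more than 0.05 on the log2 scale, the SD between replicates of the sample median. Outside the fits that left out a sample, 50 of 57 counts and medians kept within that range, or within 1.5 times for counts, and none of the 6 fold changes of called members changed sign in any fit. In SDHBKO against parental cells 7 members were called when only the 2 groups entered the fit, with 777 genes called (10.5% of those tested). They were CDKN3, ECT2, ESPL1 and MKI67 beside the 3, and ECT2 passed that filter through its parental reads. The median in that comparison was −0.11 with filterByExpr and −0.10 at BaseMean above 10. In SDHBKOSDHAlow against parental cells the 2 calls became 1 with DESeq2 and 0 at an adjusted p below 0.05, with only the 2 groups, or with the replicate block. The share of all genes called there was 1.99%, 0.172%, 0.0914% and 0.159%, in that order, against 0.914% in the main fit. Leaving out each sample in turn gave 0 to 8 members called in SDHBKO against parental cells (median −0.28 to −0.039), 1 to 6 between the derived lines (−0.0059 to 0.14) and 0 to 3 in SDHBKOSDHAlow against parental cells (−0.069 to 0.10), so that the last 2 medians changed sign with the sample left out. In the first comparison the count was 1 without SDHBKO replicate 1 and 8 without SDHBKOSDHAlow replicate 2. In the second it was 2 without SDHBKO replicate 2 (CCNB2 beside CDC25B) or SDHBKOSDHAlow replicate 1 (TOP2A beside CDC25B). It was 6 without SDHBKOSDHAlow replicate 2 (AURKB, CCNB2, CDCA3, KIF2C and PTTG1 beside CDC25B). In the third it was 0 without SDHBKO replicate 1 or SDHBKOSDHAlow replicate 1 and 1 without SDHBKO replicate 2 or SDHBKO replicate 3. Without parental replicate 1 or 2, only 1 sample is left in that group. The medians were then −0.04 and −0.24 in the first comparison and 0.03 and 0.10 in the third. The share of all genes tested that were called moved as well. In the first comparison it was 1.07% without SDHBKO replicate 1 and 11.4% without SDHBKOSDHAlow replicate 2, against 5.54% with all samples. In the second it was 1.22%, 0.964% and 5.03% in the fits named, in that order, against 1.51%. In the third it was 0.432%, 0.652% and 0.515% without SDHBKO replicate 1, 2 and 3 and 0.106% without SDHBKOSDHAlow replicate 1, against 0.914%. The CKS1B call was lost at an adjusted p below 0.05, with DESeq2 size factors, with every gene of 1 read or more, with the block and with the GC trend. The causes were not tested. Same-numbered samples of different groups did not deviate together (r from −0.27 to 0.09 over 7 pairs), so the numbers were not taken as pairs. As a block they left 2 members called (CENPF and PTTG1), 1 (CDC25B) and 0 in the 3 comparisons, with 199, 59 and 12 genes called in place of 418, 114 and 69. Counting depth limits the members under about 10 CPM, and the 10 members not tested.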

Other observations

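A wider list of 109 mitosis genes outside the 52, of which 70 were tested, held condensin, cohesin, further subunits of the anaphase-promoting complex, kinetochore genes and regulators of entry. In SDHBKO cells against parental cells 1 of the 70 was called higher and 2 lower (4.29% called, all genes tested 5.54%), with a median log2 fold change of −0.12. SMC4, the ATPase of condensin that compacts chromosomes, had 51 and 20 reads in parental samples, 2, 4 and 2 in SDHBKO samples and 9, 10 and 12 in SDHBKOSDHAlow samples. Its log2 fold change was −3.73 ± 0.56 in SDHBKO cells and −2.04 ± 0.47 in SDHBKOSDHAlow cells against parental cells (adjusted p = 0.0027 and 0.07, edgeR), so that it fell in both. ARHGAP11A, a RhoA regulator, fell by 1.96 on the log2 scale in SDHBKO cells (SE 0.55, adjusted p = 0.06, edgeR), from 29 and 12 reads in parental samples to 6, 6 and 4. NCAPH2, a subunit of condensin II, rose by 0.98 ± 0.29 (adjusted p = 0.073, edgeR), from 275 and 311 CPM to 696, 375 and 661 CPM. Between the derived lines no gene of this list was called by edgeR, with 6 at an unadjusted p below 0.05 (8.57%, all genes tested 12.1%). DESeq2 gave an adjusted p in SDHBKO cells to only 2 of 7 condensin genes and 9 of 17 other spindle and cytokinesis genes. A gene without an adjusted p could not be called. Of all genes with an adjusted p, DESeq2 called 12.4% in SDHBKO against parental cells and 2.85% between the derived lines. Of this list 33 and 43 genes had an adjusted p in these comparisons. DESeq2 called NCAPH2 higher in SDHBKO cells but neither SMC4 nor ARHGAP11A. It also called KPNA2, an importin, lower in SDHBKO than in parental cells and higher in SDHBKOSDHAlow than in SDHBKO cells, where edgeR gave −0.62 ± 0.21 and 0.57 ± 0.19 on the log2 scale and no call (adjusted p = 0.107 and 0.2). Of 11 genes of cohesin and its regulators 6 were tested. All 6 had values below 0 in SDHBKO cells, where 3784 of all 7550 genes tested did. Their median was −0.59, and none was called by edgeR. At an unadjusted p below 0.05 there was 1 (16.7%, all genes tested 17.5%). DESeq2 called none there, but gave an adjusted p to only 1 of the 6.

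Of 23 genes of S-phase entry and replication 21 were tested and none was called by edgeR in the 3 comparisons. At an unadjusted p below 0.05 there were 3, 3 and 2 (14.3%, 14.3% and 9.52%), beside 17.5%, 12.1% and 12.3% of all genes tested. DESeq2 called 1 of the 15 that had an adjusted p, FEN1, between the derived lines, where it called 2.85% of all genes. The medians were −0.05 in SDHBKO cells, 0.04 between the derived lines and −0.04 in SDHBKOSDHAlow cells against parental cells. Of the markers of the line, MSN was called higher in SDHBKOSDHAlow than in parental cells (0.84 ± 0.21, adjusted p = 0.091, edgeR). The GC content of the last 300 bases had a median of 40.5% in the 42 members and 43.3% in all genes tested.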
